A study of Mus musculus with 14 samples.

Results

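This account covers the lipid-associated macrophage genes of mouse epididymal white adipose tissue (eWAT), a set of 10 genes, Trem2, Cd9, Gpnmb, Spp1, Lgals3, Fabp5, Itgax, Mmp12, Atp6v0d2 and Plin2, chosen by name as genes that mark macrophages gathering around lipid in fat tissue. All 10 are among the 23282 genes of the deposited table. Lipid-associated macrophages are cells of obese fat that surround dying adipocytes, take up the lipid these release and break it down in their lysosomes. The receptor TREM2 is known to be needed for this state, and the cells carry genes for lipid droplets, fatty acid transport, lysosomal acidification, matrix breakdown and secreted factors. In fat tissue, several of these genes are also transcribed by other cells, so that their levels in whole tissue are not those of macrophages alone.

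The tissue came from male wild-type C57BL/6J mice kept for 20 weeks on a standard diet (control group) or on a Western diet rich in fat, sucrose and cholesterol (WD group). Every mouse carried the same genotype, and no other treatment entered these libraries. The 14 libraries, from different animals, fall into 4 controls of batch 1, 5 WD mice of batch 1 and 5 controls of batch 2. The labels give the batches as numbers without saying what differed between them, and since batch 2 held controls only, the effect of diet and that of batch cannot be told apart when WD is set against the batch 2 controls. QuantSeq primes on the poly(A) tail with oligo-dT and yields fragments from the 3′ part of transcripts, whatever the length of the gene. Values are given as CPM, the counts scaled by TMM library size, and no level is compared between different genes.

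Total counts were 10278970 to 13712254 per library, and at these depths 3 counts, the smallest level taken as shown, correspond to 0.219 to 0.292 CPM, which covers counting error only. A pair of batch 1 controls stood apart. In batch 1 control 4, 7999 genes had a count, against 10903 to 13780 in the other 13 libraries. In batch 1 control 1, 12 genes of the epididymis summed to 46290 CPM, against at most 13.5 CPM in any other library, and 10 adipocyte markers summed to 4807 CPM, against 14130 to 50640 CPM elsewhere. The tissue label was borne out by those adipocyte markers, which had counts in every library. A reference of 10 general macrophage genes (Adgre1, Csf1r, Aif1, Lyz2, Cd14 and Ctss among them) summed to 310 to 1945 CPM in the batch 1 controls, with the highest value in control 4, to 1626 to 3144 CPM in the WD group and to 266 to 699 CPM in the batch 2 controls. In bulk tissue, fewer macrophages and less RNA per macrophage cannot be told apart.

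Against the batch 2 controls, all 10 genes rose in the WD group, by 0.72 (Fabp5) to 5.48 (Gpnmb) on the log2 scale, with a median log2 fold change of 3.49 against a median of -0.0034 over all 12070 genes tested (edgeR's quasi-likelihood test, Benjamini-Hochberg adjusted p under 0.05). Of all genes tested, 3.93% rose by the same rule. The WD and control libraries did not overlap for 9 of the 10 genes, Fabp5 being the exception, against 4.99% of all genes with every WD library higher. Against the batch 1 controls, 9 of the 10 genes had a positive log2 fold change and Cd9 a negative value, with a median of 1.50 against 0.03 over 12157 genes. None of the 10 passed the adjusted threshold in edgeR there, and neither did any other gene (0%). At an unadjusted p under 0.05, 4 of the 10 genes (Gpnmb, Lgals3, Itgax and Plin2) were higher in WD, against 3.35% of all genes. DESeq2 called 114 genes in the same comparison, of which Itgax was the only member of the set (adjusted p = 0.0138). The exact permutation test gave an unadjusted p under 0.05 for 7 of the 10 genes (Cd9, Fabp5 and Mmp12 excepted), against 9.87% of all genes, and for 3 of them without batch 1 control 1. After adjustment over all genes, 0 passed, the lowest adjusted p of the set being 0.275. Every WD library exceeded every batch 1 control for 3 genes (Lgals3, Itgax and Plin2), against 3.03% of all genes.

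Batch 1 control 4 held the highest level of all 9 controls for 6 of the 10 genes (Trem2, Gpnmb, Lgals3, Itgax, Mmp12 and Atp6v0d2). Batch 1 control 1 held the highest level for Cd9, control 2 for Fabp5 and Plin2 and control 3 for Spp1. For Fabp5 and Plin2, batch 1 control 1 held the lowest level of all 9 controls. In control 4 6 of the 10 genes (Trem2, Cd9, Gpnmb, Fabp5, Mmp12 and Atp6v0d2) reached the lowest WD value or more, compared with 1 or 2 genes in each of the other batch 1 controls. Such values were common over all genes. Of the 693 genes for which the other 3 batch 1 controls lay below every WD library, control 4 reached the lowest WD value in 46.9% (4 of 7 members), and the same share ranged from 37.6% (control 2) to 47.3% (control 3) in the others, with 0 of 3, 0 of 3 and 1 of 4 members in controls 1, 2 and 3. Without control 4, 4 of the 10 genes rose against the batch 1 controls (Trem2, Gpnmb, Lgals3 and Itgax), among 48 genes called in all. When controls 1 and 4 were both left out, Atp6v0d2 was added to these 4, among 108 genes called. Control 4 was the highest control for 6 of the 10 genes and was left out after the values were seen. Calls made without it, here and below, are therefore not support for a rise. With all 9 controls, Lgals3, Itgax and Plin2 rose, against 0.435% of all genes, and these were also the 3 members for which no control reached the lowest WD library, against 1.13% of all genes. None of the 3 was called in that comparison when batch 1 control 3, WD 1, WD 2, WD 3, WD 4 or batch 2 control 1 was left out, and 7 of the 10 were called without batch 1 control 4 (Mmp12, Trem2, Gpnmb and Atp6v0d2 being added), among 289 genes called of 12605 tested. Limma-voom also called 7, with Spp1 in place of Mmp12, among 223 genes called of 12653. Leaving out batch 2 control 3 left Itgax as the only member called, and leaving out batch 2 control 5 left Plin2. The 3 comparisons share the 5 WD libraries, and the last shares its controls with the others, so they are not independent of each other.

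**Figure D1:**
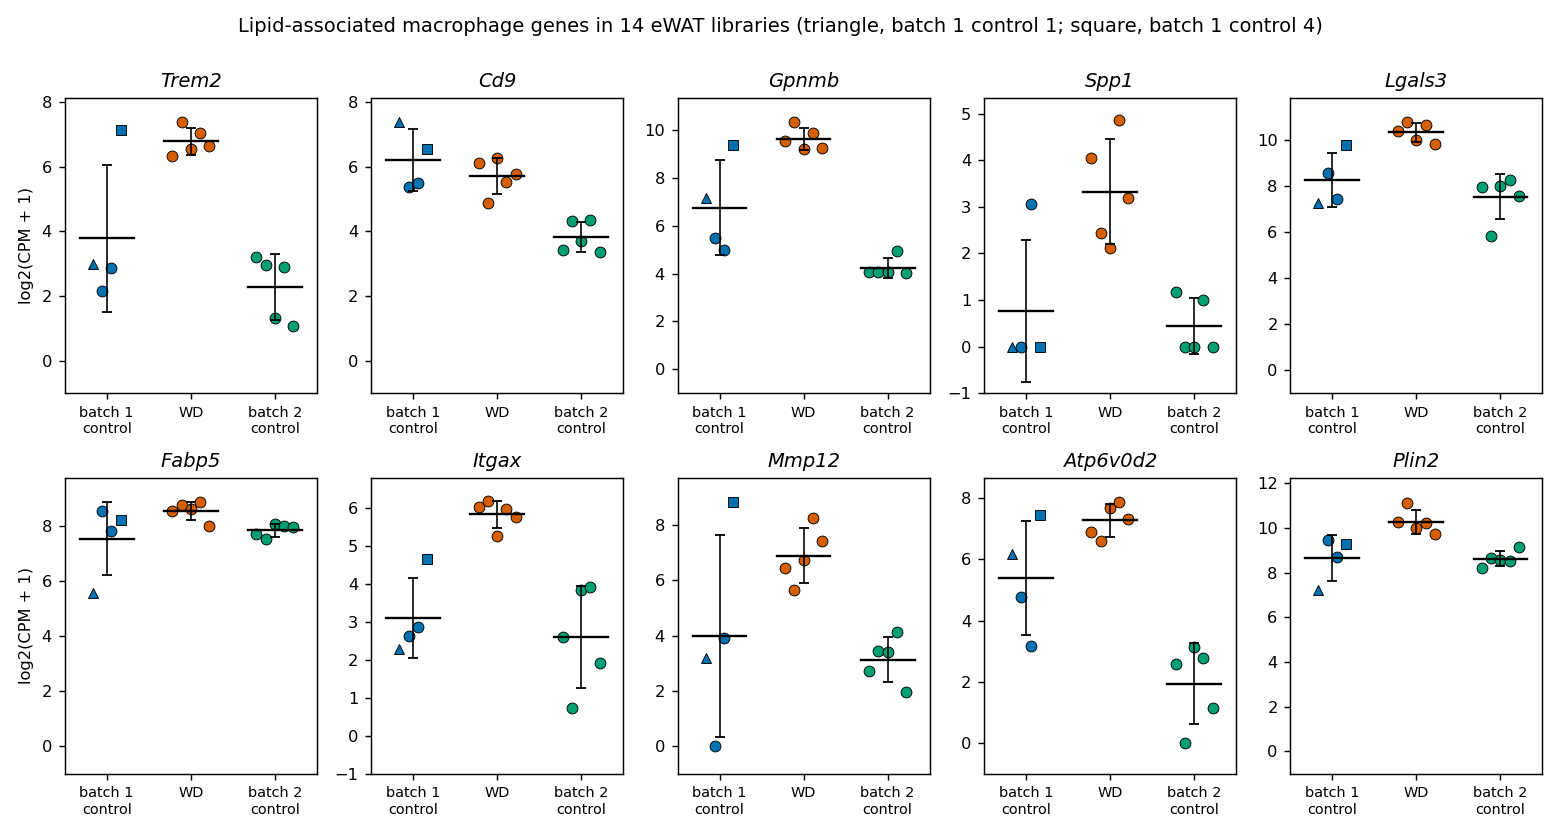
Level of each of the 10 genes, as log2(CPM + 1), in the 4 batch 1 controls, 5 WD mice and 5 batch 2 controls; points are libraries, lines are means and bars are SD. Batch 1 control 4 (square) lies among the WD libraries for Trem2, Gpnmb and Atp6v0d2 and above them for Mmp12, whereas Itgax, Lgals3 and Plin2 are higher in all 5 WD libraries than in any control.

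**Figure D2:**
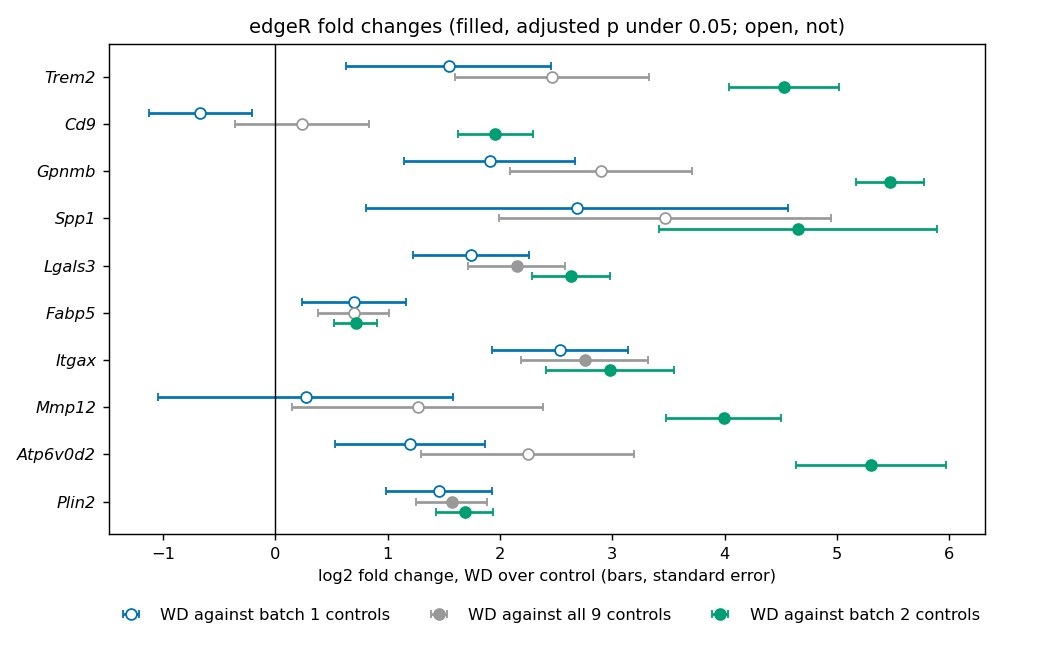
The log2 fold change of each gene between WD and control with its standard error from edgeR, for the batch 1, all 9 and batch 2 controls; filled points passed an adjusted p of 0.05. Against the batch 2 controls all 10 points are filled, against all 9 controls 3 and against the batch 1 controls none.

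Upstream sequences are printed for the pairs of genes whose levels were most alike over the libraries, Trem2 with Gpnmb and Lgals3 with Itgax. Each is the 250 bases before the annotated start in RefSeq (build GRCm38.p6), read in the direction of the gene. The intervals are chr17:48346151-48346400 on the plus strand for Trem2, chr6:49036268-49036517 on the plus strand for Gpnmb, chr14:47373610-47373859 on the plus strand for Lgals3 and chr7:128129300-128129549 on the plus strand for Itgax. Capitals mark matches on either strand to the pattern TGANTCA, searched for as the AP-1 motif with any middle base (N), and to the PU.1 core GAGGAA. As printed, the middle base of the AP-1 match is A in Trem2 and G in Itgax.
Trem2: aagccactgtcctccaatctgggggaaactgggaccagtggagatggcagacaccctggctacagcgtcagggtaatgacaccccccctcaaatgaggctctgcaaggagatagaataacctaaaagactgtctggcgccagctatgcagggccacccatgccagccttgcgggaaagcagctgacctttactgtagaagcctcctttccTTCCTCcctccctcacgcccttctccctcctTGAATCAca
Gpnmb: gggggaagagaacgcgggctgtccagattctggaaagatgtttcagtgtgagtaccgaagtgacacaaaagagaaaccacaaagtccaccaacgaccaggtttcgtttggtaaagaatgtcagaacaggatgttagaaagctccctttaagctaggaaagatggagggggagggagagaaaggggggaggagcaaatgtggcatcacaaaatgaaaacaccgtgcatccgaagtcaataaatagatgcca
Lgals3: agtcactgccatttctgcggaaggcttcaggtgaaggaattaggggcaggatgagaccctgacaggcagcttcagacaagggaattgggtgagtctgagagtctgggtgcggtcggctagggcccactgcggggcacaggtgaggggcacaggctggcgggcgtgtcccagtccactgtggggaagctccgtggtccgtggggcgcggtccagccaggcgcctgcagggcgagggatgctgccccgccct
Itgax: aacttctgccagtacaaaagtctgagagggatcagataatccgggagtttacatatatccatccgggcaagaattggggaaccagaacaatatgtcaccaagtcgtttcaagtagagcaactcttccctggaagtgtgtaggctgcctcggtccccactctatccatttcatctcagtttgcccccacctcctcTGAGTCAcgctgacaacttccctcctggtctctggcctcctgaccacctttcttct
AP-1 is a factor induced by stress and growth signals, and PU.1 is the factor that sets the myeloid lineage. The table of promoters holds entries for 8 of the 10 genes, all but Fabp5 and Atp6v0d2. Spp1 and Mmp12 each have more than 1 annotated start, so the counts per gene below and the shares per promoter differ in basis. In Mmp12 the AP-1 match and the PU.1 core lay before different starts. An AP-1 match was found upstream of 3 of them (Trem2, Itgax and Mmp12), and 6.75% of all 32851 promoters hold it. A PU.1 core was found upstream of 3 (Trem2, Spp1 and Mmp12), and 23.2% of all promoters hold it. The M-box TCATGTG, a site read by MITF and TFE factors of lysosome genes, was found in 1 (Mmp12, 83 bases before the second of its annotated starts), and 3.25% of all promoters hold it. The E-box CACGTG was found in 0 of the 8, and 6.02% of all promoters hold it. In Trem2 the AP-1 match began 9 bases and the PU.1 core 40 bases before the start, and in Itgax the AP-1 match began 56 bases before it.

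Trem2 encodes the lipid-sensing surface receptor of these cells (chromosome 17, 48346401 to 48352276, plus strand, in the mm10 coordinates of the deposited table). It reached 78.5, 166, 92.3, 129 and 98.2 CPM in WD 1 to 5. The batch 2 controls held 8.26, 6.86, 1.50, 6.42 and 1.10 CPM, and batch 1 controls 1 to 4 held 6.91, 3.42, 6.34 and 138 CPM. Thus 8 of the 9 controls lay far below the WD group, and batch 1 control 4 lay within it. Trem2 rose by 4.53 ± 0.49 (SE, log2 scale) against the batch 2 controls (edgeR adjusted p = 3.38e-05). Against the batch 1 controls the log2 fold change was 1.54 ± 0.91 (edgeR adjusted p = 1.00), and without control 4 it was 4.32 ± 0.44 (edgeR adjusted p = 0.00235). Control 4 was left out after the values were seen, so that last p is not support for a rise.

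TREM2 signals through the adaptor TYROBP and the kinase SYK, and is shed by ADAM10 and ADAM17. Of 11 partner, ligand and shedding genes, 4 rose against the batch 2 controls (Vav1, Inpp5d, Tyrobp and Syk), 0 fell, and the median log2 fold change of all 11 was 0.78. Within batch 1, 0 of the 11 were called, 6 had positive and 5 negative log2 fold changes, and the median was 0.50. Between the control batches, 9 of the 11 had lower values in batch 2, and 0 were called. Tyrobp held 172.9 ± 36.2 CPM (SD, n = 5) in WD, 44.6 ± 33.9 CPM (n = 4) in the batch 1 controls and 34.4 ± 13.2 CPM (n = 5) in the batch 2 controls, and it rose by 2.32 ± 0.28 (SE) against the batch 2 controls (edgeR adjusted p = 9.57e-05). It was also called against all 9 controls, where Trem2 was not. The sheddases Adam10 and Adam17 had log2 fold changes of 0.36 ± 0.24 and 0.14 ± 0.22 against the batch 2 controls and did not pass. The other TREM genes in the table (Trem1, Trem3, Treml1, Treml2 and Treml4) summed to at most 8.87 CPM in any library and were too low to be tested. Trem1, the inflammatory counterpart of Trem2, had 0 counts in all 9 batch 1 libraries.

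Gpnmb encodes a transmembrane glycoprotein of lysosomes and melanosomes that accumulates in lipid-laden macrophages (chromosome 6, 49036518 to 49058182, plus strand). It reached 743, 1273, 595, 924 and 608 CPM in WD 1 to 5, and 15.6, 15.7, 15.8, 30.1 and 15.1 CPM in the batch 2 controls. In the batch 1 controls it held 142, 43.8, 30.5 and 665 CPM. The batch 1 controls were thus all above the batch 2 controls, and control 4 lay within the WD range. Gpnmb showed the largest rise of the set against the batch 2 controls, 5.48 ± 0.30 (SE, log2 scale; edgeR adjusted p = 4.90e-08), which was also the lowest adjusted p of all genes tested. Against the batch 1 controls it was 1.91 ± 0.76 (edgeR adjusted p = 0.835), and 3.49 ± 0.59 without control 4 (edgeR adjusted p = 0.0301). As control 4 was left out after the values were seen, that last p is not support for a rise in Gpnmb. Pmel, its melanosomal relative, had a log2 fold change of 0.61 ± 0.40 against the batch 2 controls (SE, edgeR adjusted p = 0.504). The difference between Gpnmb and Pmel on the log2(CPM + 1) scale was 4.94 larger in WD than in the batch 2 controls (exact permutation test, two-sided, p = 0.00794, the smallest possible with 5 against 5). Within batch 1 that difference averaged 5.29 in WD and 3.98 in the controls (exact permutation p = 0.468). Between the control batches, which had the same diet, it changed by -3.63 (batch 2 minus batch 1, exact permutation p = 0.00794).

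Atp6v0d2 encodes the d2 subunit of the vacuolar proton pump (V-ATPase), which acidifies lysosomes and is the form of this subunit used by macrophages and osteoclasts (chromosome 4, 19876838 to 19922566, minus strand). WD 1 to 5 held 118, 96.2, 203, 232 and 158 CPM. The batch 2 controls held 5.01, 0, 7.86, 5.88 and 1.20 CPM, and the batch 1 controls 71.0, 26.5, 7.92 and 175 CPM. The groups did not overlap between WD and the batch 2 controls, and batch 1 control 4 was again within the WD range. The gene rose by 5.30 ± 0.66 (SE, log2 scale) against the batch 2 controls (edgeR adjusted p = 1.34e-04) and had a log2 fold change of 1.20 ± 0.67 against the batch 1 controls (edgeR adjusted p = 1.00). Of the 17 other V-ATPase subunits tested, Atp6v0a1 alone rose against the batch 2 controls (1.29 ± 0.26, edgeR adjusted p = 0.00514), and the median log2 fold change of the 17 was 0.41. The ubiquitous counterpart Atp6v0d1 held 57.0 ± 20.3 CPM in WD and 68.1 ± 7.19 CPM in the batch 2 controls (SD, n = 5 each), a log2 fold change of -0.27 ± 0.25 (SE, edgeR adjusted p = 0.705). The log2 difference between Atp6v0d2 and Atp6v0d1 was 5.66 larger in WD than in the batch 2 controls (exact permutation p = 0.00794), and 1.40 larger than in the batch 1 controls (exact permutation p = 0.183).

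Plin2 encodes a coat protein of lipid droplets and is not particular to macrophages (chromosome 4, 86656565 to 86670059, minus strand). It reached 1236, 2235, 1034, 1209 and 853 CPM in WD 1 to 5, compared with 148, 715, 421 and 623 CPM in the batch 1 controls and 300, 407, 379, 373 and 561 CPM in the batch 2 controls. All 5 WD libraries exceeded all 9 controls. Plin2 rose by 1.57 ± 0.31 (SE, log2 scale) against all 9 controls (edgeR adjusted p = 0.0240) and by 1.69 ± 0.25 against the batch 2 controls (edgeR adjusted p = 6.11e-04). Within batch 1 it was 1.46 ± 0.47 (edgeR adjusted p = 0.557; exact permutation p = 0.00794, 0.275 after adjustment over all genes). The perilipins of large adipocyte droplets went the other way against the batch 2 controls, with Plin1 falling by 1.19 ± 0.18 (edgeR adjusted p = 6.59e-04) and Plin4 by 1.76 ± 0.23 (edgeR adjusted p = 2.06e-04). Within batch 1, Plin1 and Plin4 had log2 fold changes of 0.30 ± 0.49 and -0.13 ± 0.55. The log2 difference between Plin2 and Plin3, the widely expressed member of the family, was 1.40 larger in WD than in the batch 1 controls (exact permutation p = 0.0159) and 1.33 larger than in the batch 2 controls (exact permutation p = 0.00794).

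Fabp5 encodes a fatty acid carrier of macrophages and epithelia (chromosome 3, 10012585 to 10016610, plus strand). Its levels were 375, 428, 390, 461 and 257 CPM in WD, 46.7, 371, 227 and 295 CPM in the batch 1 controls and 206, 181, 268, 252 and 247 CPM in the batch 2 controls. WD 5 lay within the controls and batch 1 control 1 was far below all others, so the groups overlapped in each comparison. Fabp5 had the smallest rise of the set, 0.72 ± 0.19 (SE, log2 scale) against the batch 2 controls (edgeR adjusted p = 0.0349), a call that was lost when WD 1, 3 or 4 or any 1 of the batch 2 controls was left out. Against the batch 1 controls the log2 fold change was 0.70 ± 0.46 (edgeR adjusted p = 1.00). Fabp4, the adipocyte carrier, held 16660 ± 6286 CPM in WD and 20630 ± 2648 CPM in the batch 2 controls (SD, n = 5 each) and had a log2 fold change of -0.32 ± 0.25 (SE, edgeR adjusted p = 0.613).

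Itgax encodes the integrin CD11c of macrophages in obese fat and of dendritic cells (chromosome 7, 128129568 to 128150657, plus strand). WD 1 to 5 held 64.1, 71.0, 37.2, 62.3 and 52.9 CPM, against 3.89, 5.17, 6.25 and 24.2 CPM in the batch 1 controls and 5.08, 0.67, 13.3, 14.1 and 2.80 CPM in the batch 2 controls. Every WD library was above every control, batch 1 control 4 included. The gene rose by 2.75 ± 0.57 (SE, log2 scale) against all 9 controls (edgeR adjusted p = 0.0278) and by 2.98 ± 0.57 against the batch 2 controls (edgeR adjusted p = 0.00354). Within batch 1 it had the lowest unadjusted p of the set, with a log2 fold change of 2.54 ± 0.61 (edgeR adjusted p = 0.434). Among the other β2 integrin genes, Itgb2, the shared β subunit, rose by 1.95 ± 0.40 against the batch 2 controls (edgeR adjusted p = 0.00600), and Itgam (CD11b) had a log2 fold change of 1.15 ± 0.43 (edgeR adjusted p = 0.141). The log2 difference between Itgax and Itgam was 1.70 larger in WD than in the batch 1 controls (exact permutation p = 0.00794) and 1.80 larger than in the batch 2 controls (exact permutation p = 0.0159). Markers of dendritic cells (Flt3, Xcr1, Clec9a, Cd209a, Zbtb46, Ccr7 and Batf3) summed to 6.00 to 18.7 CPM in WD, 0 to 6.37 CPM in the batch 1 controls and 7.63 to 12.5 CPM in the batch 2 controls, and 0 of the 5 tested against the batch 2 controls were called.

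Cd9 encodes a tetraspanin that organizes membrane proteins and is carried by many cell types (chromosome 6, 125460266 to 125494755, minus strand). Its pattern differed from that of the other genes, with 68.2, 28.2, 75.9, 45.3 and 54.1 CPM in WD, 167, 40.3, 43.8 and 92.6 CPM in the batch 1 controls and 9.74, 18.9, 11.9, 19.3 and 9.38 CPM in the batch 2 controls. The batch 1 controls overlapped the WD group, and the batch 2 controls lay below both. Cd9 rose by 1.96 ± 0.33 (SE, log2 scale) against the batch 2 controls (edgeR adjusted p = 0.00144), whereas against the batch 1 controls the log2 fold change was -0.67 ± 0.46 (edgeR adjusted p = 1.00). The highest value belonged to batch 1 control 1, the library with epididymis transcripts, and the part of these in the result was not tested; without controls 1 and 4 the log2 fold change was 0.37 ± 0.41 (edgeR adjusted p = 0.914). The annotation places an antisense transcript across Cd9, and the strand used in counting is not given in the sources used here, so reads of both cannot be told apart. A pseudogene named after it (Cd9-ps) is annotated too, and since multiple alignments were counted, the level of Cd9 is uncertain. Among 7 other tetraspanin genes, Cd53, a leukocyte tetraspanin, rose against the batch 2 controls (1.93 ± 0.44, edgeR adjusted p = 0.0123), and the median log2 fold change was 0.47. Cd81, the closest relative examined, held 341.1 ± 35.3 CPM in WD and 252.8 ± 33.9 CPM in the batch 2 controls (SD, n = 5 each), a log2 fold change of 0.42 ± 0.17 (SE, edgeR adjusted p = 0.179).

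Spp1 encodes the secreted protein osteopontin, which binds integrins and CD44 (chromosome 5, 104435111 to 104441053, plus strand). It was low throughout, with 221, 41, 45, 353 and 97 counts in WD 1 to 5, which are 15.6, 4.40, 3.33, 27.9 and 8.08 CPM. It had 0 counts in 3 of the 4 batch 1 controls and 3 of the 5 batch 2 controls, where batch 2 controls 1 and 4 held 18 and 13 counts. Batch 1 control 3 stood apart with 88 counts (7.34 CPM), above WD 2 and WD 3. Spp1 rose by 4.65 ± 1.24 (SE, log2 scale) against the batch 2 controls (edgeR adjusted p = 0.0324) and had a log2 fold change of 2.69 ± 1.88 against the batch 1 controls (edgeR adjusted p = 1.00), with wide standard errors. The call against the batch 2 controls was lost when WD 1, WD 4 or batch 2 control 2, 3 or 5 was left out. Of the 7 osteopontin receptor genes tested, Cd44 rose by 2.38 ± 0.53 (edgeR adjusted p = 0.0104) and Itga4 by 1.07 ± 0.30 (edgeR adjusted p = 0.0437) against the batch 2 controls, and 0 fell.

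Lgals3 encodes galectin-3, a secreted lectin of activated macrophages (chromosome 14, 47373860 to 47386167, plus strand). It held 1338, 1732, 1007, 1625 and 912 CPM in WD, 154, 373, 171 and 881 CPM in the batch 1 controls and 250, 56.6, 255, 307 and 191 CPM in the batch 2 controls. All 5 WD libraries were above all 9 controls, although batch 1 control 4 came close to WD 5. Lgals3 rose by 2.15 ± 0.43 (SE, log2 scale) against all 9 controls (edgeR adjusted p = 0.0240) and by 2.63 ± 0.35 against the batch 2 controls (edgeR adjusted p = 2.22e-04). Within batch 1 it was 1.74 ± 0.52 (edgeR adjusted p = 0.530), and 2.49 ± 0.46 without control 4 (edgeR adjusted p = 0.0436). That last p is not support for a rise, since control 4 was left out after the values were seen. Of 7 other galectin genes tested against the batch 2 controls, Lgals3bp, which encodes a binding protein of galectin-3, rose by 1.36 ± 0.21 (edgeR adjusted p = 8.80e-04), Lgals9 rose by 0.90 ± 0.25 (edgeR adjusted p = 0.0425) and the adipocyte galectin Lgals12 fell by 1.24 ± 0.26 (edgeR adjusted p = 0.00611). Within batch 1, Lgals12 had a log2 fold change of 0.40 ± 0.63, and it was 1.62 ± 0.55 higher in the batch 2 than in the batch 1 controls (unadjusted p = 0.0127 in edgeR). Lgals1, the most similar in role, had log2 fold changes of 0.43 ± 0.25 against the batch 2 controls and 1.32 ± 0.55 against the batch 1 controls, and passed in neither.

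Mmp12 encodes macrophage elastase, a secreted protease of elastin (chromosome 9, 7347374 to 7360461, plus strand). Its levels in WD were 85.4, 49.7, 105, 305 and 170 CPM, those of the batch 2 controls 5.58, 9.91, 9.58, 16.7 and 2.90 CPM, and those of the batch 1 controls 8.21, 0, 13.9 and 452 CPM. The highest value of all 14 libraries was thus that of a control, batch 1 control 4. Mmp12 rose by 3.99 ± 0.51 (SE, log2 scale) against the batch 2 controls (edgeR adjusted p = 1.66e-04). Within batch 1 the log2 fold change was 0.27 ± 1.31 (edgeR adjusted p = 1.00), and 4.26 ± 1.13 without control 4 (edgeR adjusted p = 0.149). That library, the highest for Mmp12, was left out after the values were seen. Of the 8 other metalloproteinase genes tested against the batch 2 controls, Mmp14, a membrane-bound activator of other proteases, rose by 1.49 ± 0.34 (edgeR adjusted p = 0.0118) and 0 fell, and of 4 genes for their inhibitors (TIMPs) 0 were called. Within batch 1, Mmp14 had a log2 fold change of -0.25 ± 0.47, and between the control batches, batch 2 over batch 1, it had one of -1.76 ± 0.41 (unadjusted p = 0.00102 in edgeR). Mmp13 had at most 59 counts in a library and was not tested.

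**Figure D3:**
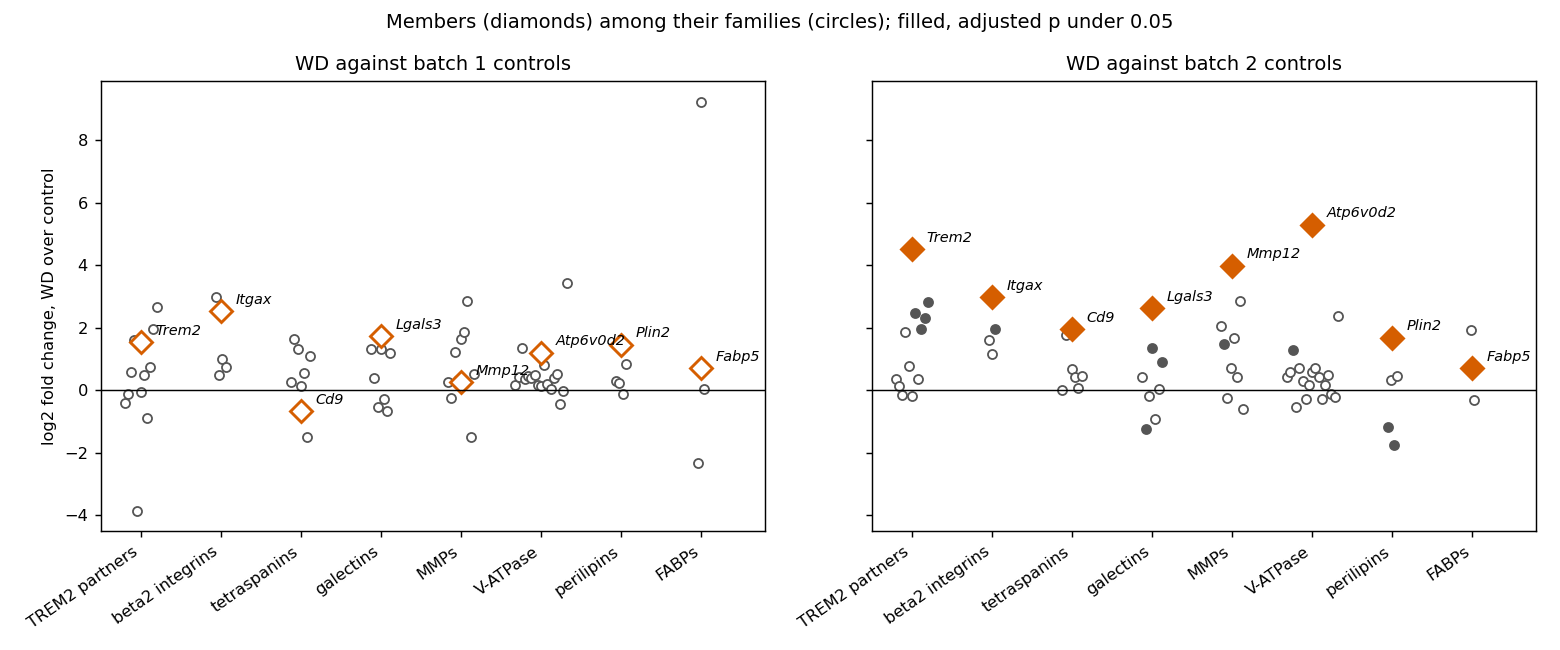
The log2 fold changes of 8 of the genes (diamonds) beside the tested genes of their families or pathways (circles), against the batch 1 controls (left) and the batch 2 controls (right); filled symbols passed an adjusted p of 0.05 in edgeR. On the right, Atp6v0d2 stands at 5.30 above 17 other V-ATPase genes, and Plin2 at 1.69 while Plin1 and Plin4 are below 0.

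The next comparison set each gene against the general macrophage reference, by taking its log2(CPM + 1) minus the mean of the 10 reference genes in the same library. The reference itself was higher in WD, 6.28 ± 0.51 (SD, n = 5), than in the batch 1 controls, 4.75 ± 0.67 (n = 4), and the batch 2 controls, 4.36 ± 0.34 (n = 5; two-sided exact permutation p = 0.00794 for each, the smallest these sizes allow). The 30 tests on single genes that follow, 10 in each of the 3 diet comparisons, are unadjusted. Relative to the reference, Gpnmb was 3.49 higher in WD than in the batch 2 controls, Atp6v0d2 3.42, Trem2 2.57, Mmp12 1.85 (exact permutation p = 0.00794 each) and Lgals3 0.87 (exact permutation p = 0.0238). Fabp5 was 1.20 lower relative to the reference (exact permutation p = 0.00794), since its rise was smaller than that of the reference. For Cd9 and Plin2 the differences were -0.04 and -0.27 (exact permutation p = 0.921 and 0.556), and for Itgax and Spp1 1.31 and 0.97 (exact permutation p = 0.0635 and 0.0714). With Adgre1 alone as the reference, the values for Lgals3 and Mmp12 were 0.13 and 1.10 (exact permutation p = 0.841 and 0.135).

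Within batch 1, 2 of the 10 genes differed from the reference. Cd9 was 2.01 lower in WD relative to it, with all 5 WD libraries between -1.25 and 0.02 and the 4 controls between 0.61 and 3.37 (exact permutation p = 0.00794). The rise of the reference, 1.53 in this comparison, enters that value. The mean log2(CPM + 1) of Cd9 itself was 5.71 in WD and 6.20 in the batch 1 controls (exact permutation p = 0.381). Itgax was 1.20 higher relative to the reference (exact permutation p = 0.0238), and this passed in neither direction when Adgre1 (0.37, exact permutation p = 0.349) or Csf1r (0.71, exact permutation p = 0.0635) was the reference. Trem2 was 1.47 higher relative to the reference with all 4 controls (exact permutation p = 0.143) and 2.29 higher without control 4 (exact permutation p = 0.0179, the smallest possible with 3 against 5), and Mmp12 was 1.39 and 2.71 higher (exact permutation p = 0.444 and 0.0179). Control 4 held the highest relative value of the batch 1 controls for both genes and was left out after the values were seen. The exact permutation p of 0.0179 is therefore not support for a difference. Gpnmb and Atp6v0d2 were 1.36 and 0.35 higher in WD relative to the reference (exact permutation p = 0.198 and 0.68). Between the control batches, batch 2 minus batch 1, Gpnmb and Atp6v0d2 differed by -2.13 and -3.07 (unadjusted exact permutation p = 0.00794 and 0.0159). Trem2 and Mmp12 differed there by -1.10 and -0.46 (unadjusted exact permutation p = 0.286 and 0.722). Relative to the reference, batch 1 control 4 held 1.48 for Trem2, 3.74 for Gpnmb and 3.19 for Mmp12, against WD ranges of -0.46 to 1.64, 2.77 to 4.57 and -0.34 to 1.66.

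**Figure D4:**
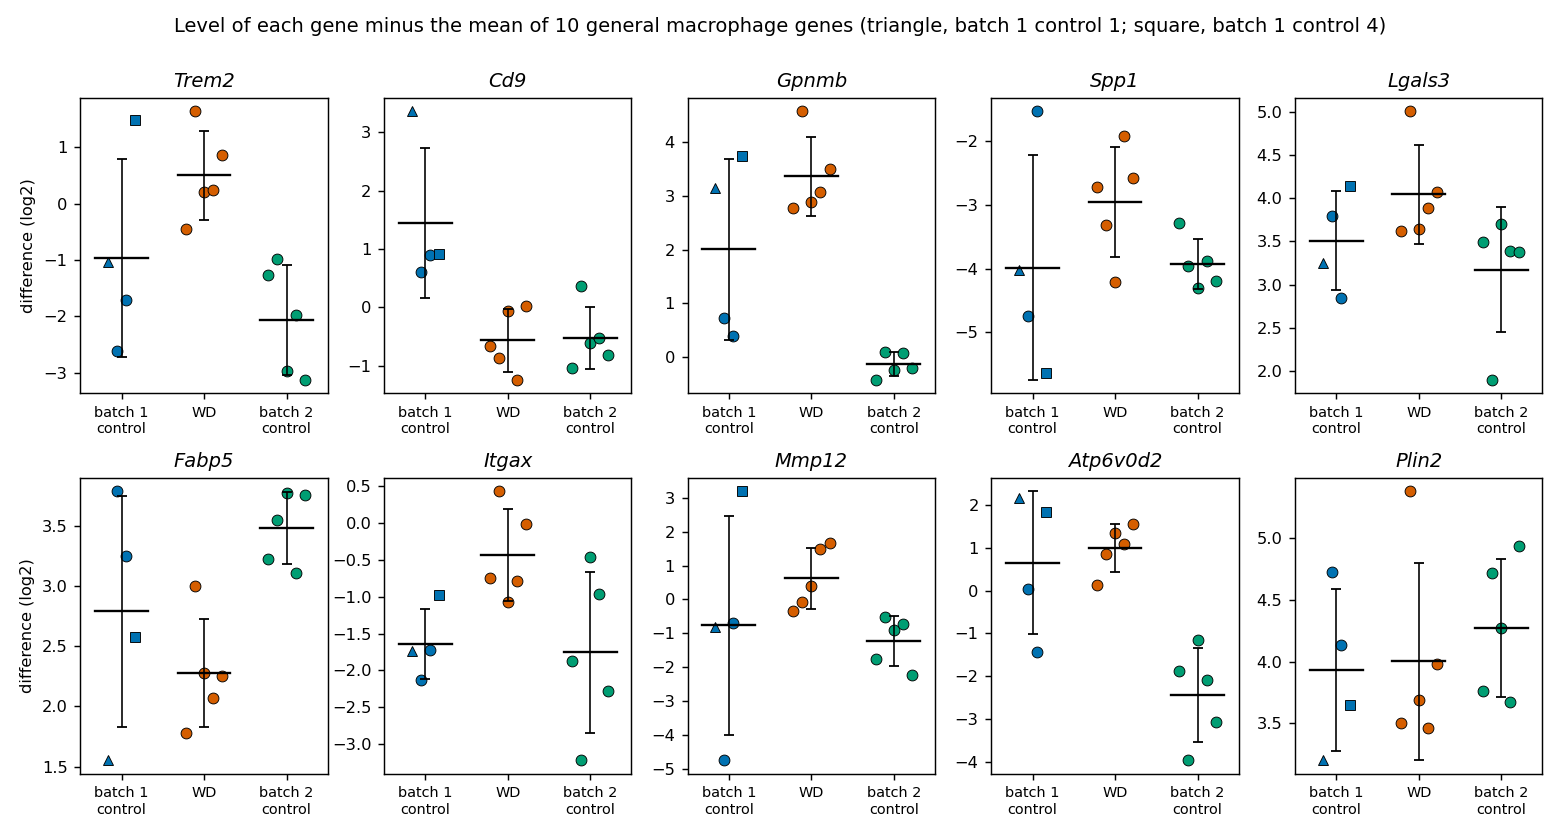
Each gene's log2(CPM + 1) minus the mean of 10 general macrophage genes in the same library; points are libraries, lines means and bars SD. Gpnmb and Atp6v0d2 are higher in every WD library than in every batch 2 control, but overlap between WD and the batch 1 controls. Fabp5 is lower in every WD library than in every batch 2 control, and Cd9 is higher in all 4 batch 1 controls than in the WD group.

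The controls of the 2 batches, which had the same diet, were compared as a measure of the spread between batches. Spp1 was too low to be tested, and the other 9 genes all had lower values in batch 2, with a median log2 fold change of -2.64 against -0.0024 over 12106 genes tested. No gene passed an adjusted p of 0.05 in edgeR (0%). At an unadjusted p under 0.05, 5 of the 9 genes (Trem2, Cd9, Gpnmb, Mmp12 and Atp6v0d2) were lower in batch 2, against 3.54% of all genes, and DESeq2 called 111 genes, with Cd9, Gpnmb and Atp6v0d2 among them. For these 3 genes every batch 2 control was below every batch 1 control, against 1.16% of all genes. The separation was narrow for Gpnmb, with 30.1 CPM in batch 2 control 4 and 30.5 CPM in batch 1 control 3. For Atp6v0d2 it was 7.86 CPM in batch 2 control 3 against 7.92 CPM in batch 1 control 3. The deposited log2 values of Atp6v0d2 in these libraries were 3.16 and 3.155, so its control groups overlapped there. Cd9 had a log2 fold change of -2.64 ± 0.48, Gpnmb -3.58 ± 0.78 and Atp6v0d2 -4.13 ± 1.13 (SE; edgeR adjusted p = 0.375, 0.445 and 0.445). Those of Lgals3, Itgax, Plin2 and Fabp5 were -0.91 ± 0.56, -0.46 ± 1.01, -0.25 ± 0.39 and -0.03 ± 0.44. Gpnmb, Atp6v0d2, Trem2 and Mmp12, which with Spp1 had the largest log2 fold changes against the batch 2 controls, also had the largest differences between the controls, and for them diet and batch cannot be told apart. For Trem2 and Mmp12 that difference rested on batch 1 control 4, since without it the log2 fold changes were -0.18 ± 0.95 and 0.30 ± 1.18, against -3.00 ± 1.12 and -3.73 ± 1.46 with it. Without that library Atp6v0d2 was at -3.10 ± 1.06, Cd9 at -2.56 ± 0.48 and Gpnmb at -1.94 ± 0.47, and limma-voom with all libraries gave -0.03 for Mmp12. In the model of all 14 libraries with batch as a covariate, 0 of the 10 genes were called, and 1 gene of all; Plin2 had a log2 fold change of 1.44 ± 0.40 (edgeR adjusted p = 0.206), Itgax 2.51 ± 0.76 (edgeR adjusted p = 0.257) and Lgals3 1.71 ± 0.52 (edgeR adjusted p = 0.254).

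Correlations over the 14 libraries describe how the genes vary together. Trem2 was most like Gpnmb (r = 0.94), Gpnmb and Atp6v0d2 were linked by r = 0.93, and Mmp12 was most like Trem2 (r = 0.88). Lgals3 and Itgax were most like each other (r = 0.96), as were Plin2 and Fabp5 (r = 0.85). Cd9 was most like Atp6v0d2 (r = 0.76) and least like Fabp5 (r = -0.22), and Spp1 was most like Itgax (r = 0.72). With the mean of the macrophage reference, r ranged from 0.43 for Cd9 to 0.92 for Lgals3. The libraries share group and batch, so these values carry the group differences as well as variation among mice.

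Of the genes outside the set, the 10 whose levels most resembled the mean standardized level of the 10 members were Il7r (r = 0.98), Ctss (0.98), Tph2 (0.97), Mki67 (0.96), Ms4a7 (0.96), Pam (0.96), Nceh1 (0.96), Tyrobp (0.96), Cotl1 (0.95) and Wwp1 (0.95), each over 14 libraries. They were chosen over the libraries compared here, so their differences between groups follow from the choice and are given without a test. Mki67, a marker of dividing cells, held a mean of 44.1 CPM in WD, 16.4 CPM in the batch 1 controls and 3.38 CPM in the batch 2 controls. Batch 1 control 4 alone held 49.6 CPM, and the mean of the other 3 batch 1 controls was 5.32 CPM. Nceh1, a hydrolase of cholesterol esters, had a log2 fold change of 3.22 against the batch 2 controls. Tph2, an enzyme of serotonin synthesis known from neurons, was at 0 in 3 batch 1 controls and 3 batch 2 controls and held 302 to 723 counts in WD, and it had 384 counts in batch 1 control 4.

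Other genes of lipid-associated macrophages, taken from a list of 26, followed the set in part. Against the batch 2 controls 15 of the 26 rose and 0 fell, with a median log2 fold change of 1.12, and within batch 1 0 were called, with a median of 0.74. Cd68, a lysosomal membrane protein of macrophages, rose by 3.60 ± 0.35 (edgeR adjusted p = 1.26e-05), Lipa, the lysosomal acid lipase, by 2.40 ± 0.22 (edgeR adjusted p = 9.78e-06), Clec7a, the receptor dectin-1, by 2.53 ± 0.40 (edgeR adjusted p = 0.00101) and the protease gene Ctsd by 1.41 ± 0.24 (edgeR adjusted p = 0.00136). Lpl, which is also transcribed by adipocytes, had the lowest value of the list, -0.49 ± 0.17 (edgeR adjusted p = 0.104). Against all 9 controls 6 of the 26 rose (Clec7a, Nceh1, Lipa, Tyrobp, Ctsd and Ctsz). Among 12 tested genes for transcription regulators of lysosomes and lipid use, Spi1, which encodes PU.1, rose against the batch 2 controls (2.23 ± 0.31, edgeR adjusted p = 2.74e-04) and against all 9 controls, and 0 others were called; Mitf had a log2 fold change of 0.02 ± 0.31 and Pparg of -0.70 ± 0.29.

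Markers of other cells moved with the set to different degrees. Of 6 genes of resident macrophages, Clec10a, Mrc1 and Folr2 rose against the batch 2 controls. The other 3, Lyve1, Cd163 and Timd4, had log2 fold changes of -1.40 ± 0.42, -0.72 ± 0.25 and -1.83 ± 1.58 (edgeR adjusted p = 0.0592, 0.12 and 0.656). Within batch 1, 0 of the 5 tested were called, and Clec10a, Mrc1 and Folr2 had log2 fold changes of 0.63 ± 0.59, 0.27 ± 0.46 and 1.20 ± 0.61. Of 7 osteoclast genes, 4 were tested, Ctsk and Tnfrsf11a rose and Acp5 fell by 0.77 ± 0.21 (edgeR adjusted p = 0.0424), and Dcstamp, Ocstamp and Calcr were among those not tested. Within batch 1, Acp5 had a log2 fold change of 0.25 ± 0.53, and batch 2 controls over batch 1 controls gave 1.00 ± 0.52. Of 10 adipocyte markers, 9 fell and Lep rose against the batch 2 controls, with summed levels of 14130 to 20800 CPM in WD, 38240 to 50640 CPM in the batch 2 controls and 4807 to 31020 CPM in the batch 1 controls. Within batch 1, 0 of these 10 markers were called, 3 had positive and 7 negative log2 fold changes, and the median was -0.17. All 10 had higher values in the batch 2 than in the batch 1 controls, with a median log2 fold change of 0.88 and 0 called. The sum of 9 T, NK and B cell markers was at most 73.9 CPM in WD and 5.09 CPM in the batch 2 controls, and reached 269 CPM in batch 1 control 1. The part of these cells in the levels of the 10 genes was not tested.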

How the data were processed

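eWAT was collected after 20 weeks of diet and sequenced with QuantSeq 3′ mRNA-Seq as single-end reads. The authors mapped the reads with Bowtie2 and used Bedtools to count, for each gene, reads with a unique place as well as those with several. The deposited counts hold these numbers, not normalized. The submitters' processing notes name the build mm10 and the tools Bowtie2, bedtools, FastQC and edgeR, with versions not given in the sources used here. The authors also deposited log2 values of TMM-normalized CPM, with 1 added before the logarithm. Log2 values recomputed here differed from these by at most 0.0507. Since multiple alignments were counted and no molecular identifiers are mentioned, near-identical genes can share reads, and depth covers counting error only.

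Diet was compared with edgeR 4.0.16 (quasi-likelihood test, TMM, edgeR's filter on low counts, no covariates, adjusted p under 0.05 by Benjamini-Hochberg over all genes tested) in R 4.3.3, between WD and the batch 1 controls, the batch 2 controls or all 9 controls, and the controls of the batches were compared in the same way. An exact permutation test of the difference in mean log2(CPM + 1) was run on every gene, two-sided. DESeq2 1.42.0, limma-voom (limma 3.58.1), other normalizations and filters, a batch covariate, a replicate block, a pseudocount of 0.1, other macrophage references and leaving out libraries were alternatives. The values of 1 gene of the macrophage reference are not reported here on their own. Python 3.11.15, numpy 2.4.6, pandas 2.3.3, scipy 1.17.1 and matplotlib 3.10.9 did the rest. The edgeR pipeline was tested on simulated data. Groups and replicate numbers came from the library names. The text names the 10 members, their closest relatives, genes of the lists that passed the test or had the largest or smallest value, and the 10 genes most like the set. The members, the lists and the tests were chosen with earlier results of these data known, and the tests of a gene against its relative were added after the values were seen. Promoter sequences are RefSeq's (GRCm38.p6), and overlapping genes were read from GENCODE M21.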

Additional observations from a re-analysis of the deposited data

Results flagged for a closer look

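In 4 of the 30 combinations of a gene and a group, a single library lay far from the others of its group on the log2(CPM + 1) scale (Dixon's test, 95% level). Chance gives about 1.5 in 30. Trem2 in batch 1 control 4 was at 7.12, against 2.14 to 2.98 in the other batch 1 controls. Gpnmb in batch 2 control 4 was at 4.96, against 4.01 to 4.07 in the other batch 2 controls. Spp1 in batch 1 control 3 was at 3.06, against 0 in the other batch 1 controls. With those all at 0, the ratio used by the test is 1 for any level above 0. The figure of 1.5 by chance does not allow for such ties. Lgals3 in batch 2 control 2 was at 5.85, against 7.58 to 8.27 in the other batch 2 controls. Mmp12 in batch 1 control 4, the highest of all libraries, did not meet the criterion because batch 1 control 2 was at 0.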

How the results depend on the processing

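The members' calls against the batch 2 controls were the steadiest. All 10 genes kept their direction under every alternative run, 10 were called under DESeq2, limma-voom and the other normalizations, and 8 to 10 when single libraries were left out, Fabp5 and Spp1 being the members lost (both without WD 1, WD 4 or batch 2 control 2, 3 or 5, and Fabp5 alone without WD 3 or batch 2 control 1 or 4). Over all 12070 genes tested there, DESeq2 called 1154 and limma-voom 834. Requiring 1 CPM or more in all libraries, 7 genes of the set were tested and 7 called, among 846 genes called of 8149 tested. Against the batch 1 controls, 0 were called under the other normalizations, filters and limma-voom, 1 under DESeq2, 0 to 4 when single libraries were left out (4 without batch 1 control 4), and 5 without batch 1 controls 1 and 4. Against all 9 controls, 3 were called at first, 7 with limma-voom, 0 with batch as a covariate, 0 to 7 when single libraries were left out, and 7 without batch 1 controls 1 and 4. That last setting called 619 genes of 12428 tested. Between the control batches, 0 became 3 under DESeq2. Of the 10 genes, 7 had an exact permutation p under 0.05 within batch 1, and 3 to 8 without batch 1 control 1 or 4, an alternative chosen after seeing the data. Relative to the macrophage reference, the count of 2 within batch 1 became 1 with a pseudocount of 0.1 and 1 to 4 when single libraries were left out, and the count of 4 against all 9 controls became 3 to 7. The causes were not tested.

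Directions turned only for values that had not passed an adjusted p of 0.05 or an exact permutation test, although that of Mmp12 between the control batches had an unadjusted p of 0.0255 in edgeR and turned without batch 1 control 4. The log2 fold change of Cd9 was -0.67 within batch 1 and 0.37 without batch 1 controls 1 and 4, and against all 9 controls it was 0.24, and -0.67 with batch as a covariate. Leaving out single libraries, that of Mmp12 within batch 1 ranged from -0.21 to 4.26. Between the control batches, Fabp5 was 0.28 with limma-voom and 0.23 with the replicate block, and leaving out single libraries gave -0.37 to 0.27 for Fabp5, -0.86 to 0.51 for Itgax, -4.18 to 0.30 for Mmp12 and -0.55 to 0.013 for Plin2. Relative to the reference within batch 1, Plin2 was -0.0665 with a pseudocount of 0.1, -0.76 with Adgre1 alone and -0.42 with Csf1r alone, and -0.27 to 0.34 over the libraries left out. Atp6v0d2 was -0.48 and -0.15 with these single references, and -0.34 to 0.85 over the libraries left out, and Lgals3 was -0.29 with Adgre1 alone. Relative to the reference against all 9 controls, Lgals3 was -0.0582 with Adgre1 alone, and Plin2 was -0.46 to 0.017 over the libraries left out. Against the batch 2 controls, Cd9 was 0.084 with a reference without Ctss and -0.18 to 0.19 over the libraries left out.

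Replicate numbers only name libraries of different mice, and the deviations of same-numbered libraries from their group means correlated by at most 0.0812. With the replicate block, 0 genes were called within batch 1, 9 of the 10 against the batch 2 controls (Fabp5 fell out, log2 fold change 0.70, edgeR adjusted p = 0.0848) and 0 between the control batches. Of all 12070 genes tested against the batch 2 controls, 594 were called with the block. Depth limits Spp1 most, at 0 counts in 6 of the 9 controls.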
